A study of Homo sapiens and Mus musculus with 92 samples.

Results

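UBASH3A and UBASH3B, the E3 ligases CBL and CBLB, and the tyrosine kinases SYK, ZAP70, LYN and FYN were examined in HEL cells, an established human erythroleukemia cell line. These 8 genes were taken by symbol from the 28103 genes of the RNA-seq count tables, and all 8 were found in both tables. The series holds 92 samples, of which the 10 RNA-seq libraries were used here. In the MLL1 experiment, 3 libraries of control cells and 3 libraries of MLL1 KD cells were compared, and the AF9 experiment set 2 AF9 KD libraries against 2 control libraries. The knockdowns were made with MLL1 shRNA #1 and AF9 shRNA #1. Control cells carry the genotype WT in the sample labels, and the methods of the study name a control shRNA. Each experiment had its own controls, and each target was knocked down with 1 shRNA in these libraries.

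UBASH3A (also called STS-2 or TULA) and UBASH3B (STS-1 or TULA-2) are related proteins that bind ubiquitin and CBL and carry a phosphatase domain, which is weak in UBASH3A and strong in UBASH3B. CBL and CBLB attach ubiquitin to activated tyrosine kinases, which directs these kinases to degradation. SRC family kinases such as LYN and FYN phosphorylate the ITAM motifs of immune receptors, SYK and ZAP70 dock on these motifs and relay the signal, and UBASH3B is known to dephosphorylate SYK and ZAP70. UBASH3A and ZAP70 are known mainly from T cells, whereas UBASH3B, SYK and LYN are widely used in blood cells, including platelets and erythroid precursors.

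The sites of the shRNAs in their target transcripts are shown because their seed letters recur in some of the 8 transcripts. Each is written 5′ to 3′ as the sense strand, and capitals mark the bases that pair with positions 2 to 8 of the guide, the seed that can also pair with other transcripts.
MLL1 shRNA #1: gcactgttaaacaTTCCACTt
AF9 shRNA #1: ttcaaagcctcacAAATTAAt
The MLL1 shRNA site occurs at base 3011 of the canonical KMT2A transcript, and the AF9 shRNA site at base 822 of the canonical MLLT3 transcript (GENCODE version 44). KMT2A encodes MLL1 and MLLT3 encodes AF9. On the sense strand, the letters AAATTAA occurred in 27.5% of 25947 canonical transcripts and TTCCACT in 20%.

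Total counts were 6966345 to 10380241 per library in the MLL1 experiment and 12278989 to 14232408 in the AF9 experiment. Counts were scaled with edgeR's TMM factors to CPM, which are set to a common library size and compare libraries. TPM, which account for gene length and compare genes, were set to the same total in each library without TMM factors. Changes between groups can therefore differ somewhat between CPM and TPM. Tests covered the 14394 genes of the MLL1 experiment and the 13333 genes of the AF9 experiment whose mean TPM reached 1. Genes were called where edgeR (quasi-likelihood test, p-values adjusted by Benjamini-Hochberg over every gene tested) gave an adjusted p under 0.05 and the fold change reached 1.5. The labels do not say whether replicates came from separate cultures, so the p-values measure the spread between these libraries, which may be technical. In bulk libraries, fewer cells that express a gene and less RNA per cell cannot be told apart.

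The targeted genes were lower in the matching KD libraries. KMT2A stood at 1256 to 1321 CPM in control cells and 812 to 834 CPM in MLL1 KD cells (log2 fold change -0.66, SE 0.09), which edgeR did not call without a replicate block (adjusted p = 0.0724) and called with the block (adjusted p = 3.43e-07) or without MLL1 KD replicate 1. MLLT3 stood at 527 and 547 CPM in control cells and at 92.5 and 107 CPM in AF9 KD cells (log2 fold change -2.43, SE 0.11, adjusted p = 3.18e-08 by edgeR). In the MLL1 experiment, replicate 1 of both groups stood apart. The chi-square per degree of freedom between libraries of a group was 30.2 to 56.6 for pairs with replicate 1, and 2.37 and 2.66 for replicates 2 and 3. Since replicate 1 of control and KD cells deviated together from the other libraries, results of the MLL1 experiment are given with and without the replicate number as a block.

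The 8 genes spanned a wide range of levels. In control cells of the MLL1 experiment, UBASH3B had a mean of 205 ± 107 TPM (SD, n = 3), LYN 171 ± 20.7, SYK 151 ± 18.7 and CBL 120 ± 4.43 TPM. UBASH3A followed with 69.1 ± 6.09 TPM, FYN with 54.3 ± 2.48 and CBLB with 7.56 ± 0.61. The spread of UBASH3B reached over LYN, SYK and CBL, so the order of the upper genes is not settled by these libraries. Among the genes tested in that experiment, 95.4% had a lower mean TPM than UBASH3B in control cells, 81.4% a lower one than UBASH3A and 25.9% a lower one than CBLB.

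In control cells of the AF9 experiment, UBASH3B (232 ± 15.1 TPM, SD, n = 2) and LYN (223 ± 16.1) were highest and overlapped. CBL (95.5 ± 2.35), SYK (78.7 ± 2.03) and FYN (20.0 ± 1.18) came next. CBLB (8.08 ± 0.509) and UBASH3A (7.55 ± 0.583) were close to each other. UBASH3A, a high gene in the first set of controls, was thus among the lower genes in the second. Its mean TPM was 9.14 times as high in control cells of the MLL1 experiment as in those of the AF9 experiment. The same ratio was 2.72 for FYN, 1.91 for SYK, 1.26 for CBL and 0.767 to 0.936 for LYN, UBASH3B and CBLB. The 2 experiments share no library, so culture, batch and sequencing cannot be told apart in these ratios.

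The erythroid identity of HEL cells was checked with 10 erythroid markers, all of which were detected in every group. Their summed level differed between experiments, at 3782 to 4603 TPM in control cells of the MLL1 experiment and 36126 to 36165 TPM in those of the AF9 experiment. Most of this difference lay in HBG2, a fetal globin gene (1436 and 24523 TPM on average). GATA1, the master regulator of erythroid genes, was at 724 and 541 TPM. After MLL1 knockdown the erythroid sum was 3335 to 3844 TPM, which overlapped the controls, and ALAS2, the first enzyme of heme synthesis in erythroid cells (named after its values were seen), was at 19.7 against 66.0 TPM. After AF9 knockdown the sum was 24680 to 29064 TPM, below both controls, while ALAS2 was at 555 against 344 TPM. Megakaryocyte markers were present in every group too, at summed levels of 1179 to 2384 TPM, with ITGA2B highest. PPBP was the exception, with at most 4 counts in any library, and PF4 was low in the AF9 experiment (4.76 and 4.65 TPM). The part of these differences in the levels and responses of the 8 genes was not tested.

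ZAP70 was at the edge of detection. It had 1, 5 and 2 counts in control cells and 1, 5 and 11 counts in MLL1 KD cells. In the AF9 experiment it had 8 and 8 counts in control cells and 9 and 14 counts in AF9 KD cells. These levels, 0.0969 to 0.492 TPM and 0.468 to 0.534 TPM in the control libraries, were below the filter of the test. The kinase of the pair that HEL cells carried at a substantial level was therefore SYK, the form used outside T cells.

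**Figure D1:**
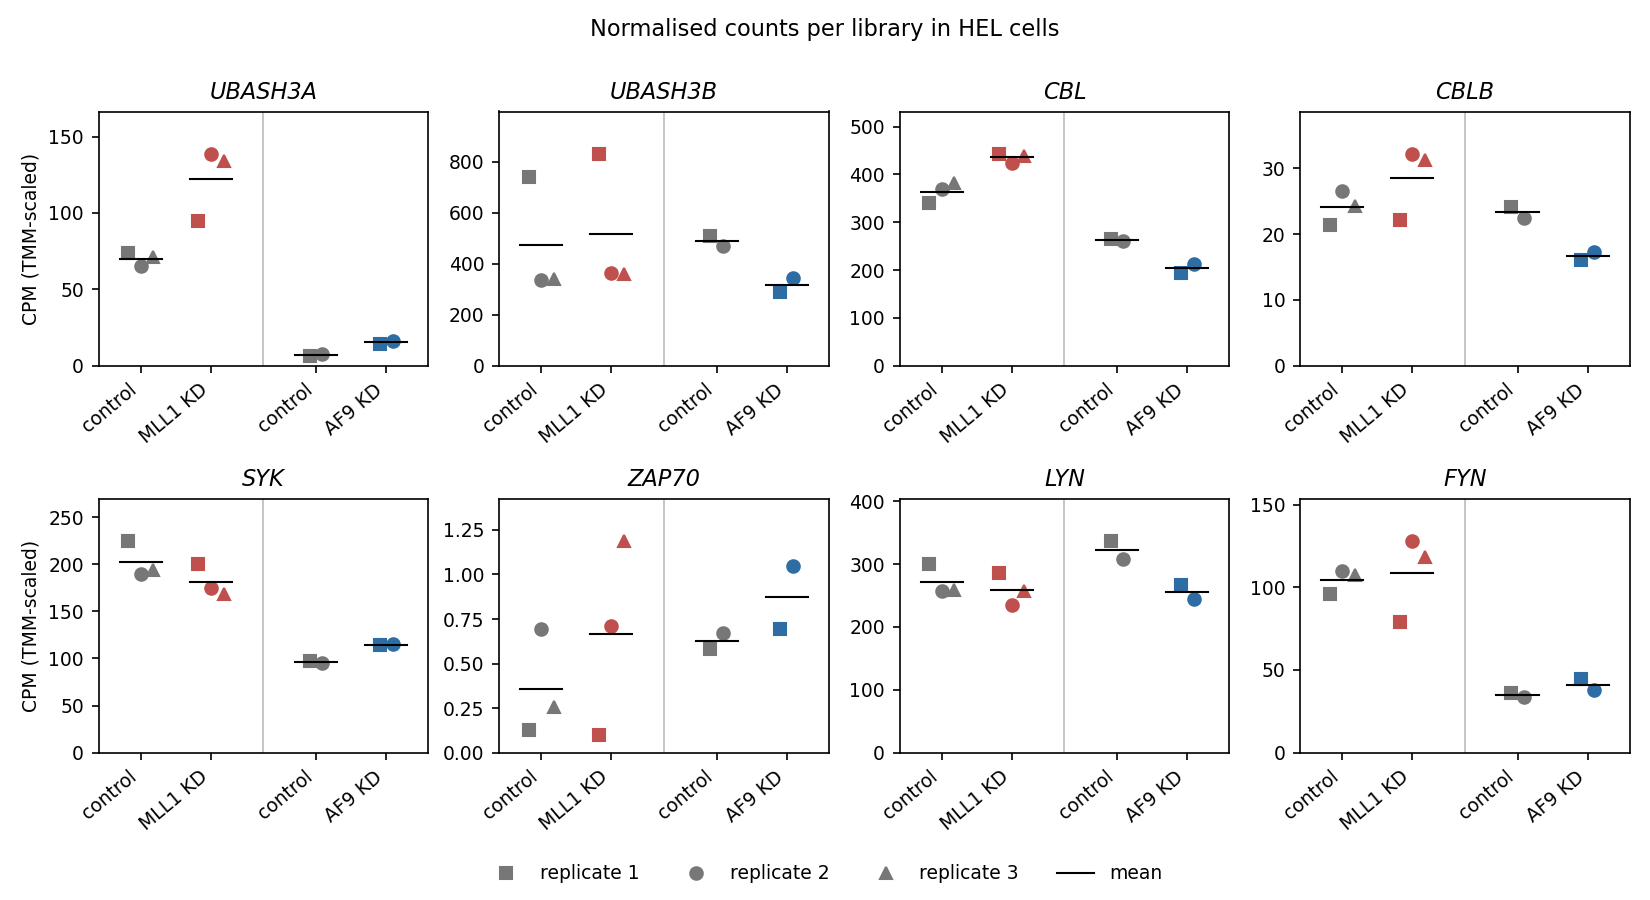
Normalised counts (TMM-scaled CPM, linear axes from 0, a separate scale per gene) of the 8 genes in each of the 10 libraries, with the MLL1 experiment left and the AF9 experiment right of the grey line in each panel. Symbols give the replicate number and black lines the group means. UBASH3A was higher in every KD library than in its own controls, and replicate 1 of UBASH3B stood at 739 and 830 CPM against 335 to 364 CPM in replicates 2 and 3.

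The first comparison addressed how the 8 genes respond to MLL1 knockdown. UBASH3A was higher in MLL1 KD cells. It stood at 73.6, 65.0 and 71.3 CPM in control cells and at 94.8, 139 and 134 CPM in MLL1 KD cells. Every KD library was above every control library, with replicate 1 of the KD closest to the controls. The fold change was 1.75 (log2 fold change 0.81, SE 0.17). edgeR gave an adjusted p of 0.168 without the block and 1.26e-04 with the block (log2 fold change 0.79), so UBASH3A was called only in the blocked fit of the pair. Leaving out MLL1 KD replicate 1 also gave a call, with a log2 fold change of 0.96 and an adjusted p of 0.0252 by edgeR.

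UBASH3B, the other UBASH3 protein, stood at 739, 335 and 341 CPM in control cells and at 830, 364 and 359 CPM in MLL1 KD cells. Replicate 1 was 2.18 times as high as the mean of replicates 2 and 3 in control cells and 2.30 times as high in MLL1 KD cells. The groups overlapped. The log2 fold change was 0.14 with an SE of 0.42 (adjusted p = 0.961, edgeR), and with the block it was 0.12 with an SE of 0.06 (adjusted p = 0.223, edgeR). Left without MLL1 KD replicate 1 the unblocked value was -0.38, and without control replicate 2 or 3 it was -0.06 or -0.05. The unpaired direction thus depended on which library was left out.

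CBL, the ligase to which the UBASH3 proteins bind, stood at 340, 370 and 382 CPM in control cells and at 443, 425 and 438 CPM in MLL1 KD cells. All 3 KD libraries lay above all 3 control libraries. The log2 fold change was 0.26 (SE 0.10), with an adjusted p of 0.445 without the block and 0.0137 with it (edgeR), below 1.5-fold in both fits. CBLB, the second ligase, stood at 21.4, 26.6 and 24.2 CPM and at 22.2, 32.2 and 31.2 CPM, and its groups overlapped (log2 fold change 0.24, SE 0.19, adjusted p = 0.768, edgeR).

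The kinases moved little. SYK stood at 225, 189 and 194 CPM in control cells and 200, 175 and 169 CPM in MLL1 KD cells (log2 fold change -0.16, SE 0.13, adjusted p = 0.764, edgeR). LYN, a SRC family kinase of myeloid and erythroid cells, stood at 301, 257 and 259 CPM and at 286, 235 and 257 CPM (log2 fold change -0.07, SE 0.13). FYN, a SRC family kinase of T cells and many other cells, stood at 95.7, 110 and 108 CPM and at 78.7, 128 and 119 CPM (log2 fold change 0.05, SE 0.19). The groups overlapped for all 3 kinases. The sign of the FYN and LYN values changed when single libraries were left out.

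Of the 7 genes that passed the filter, edgeR therefore called 0 in MLL1 KD cells, with 2 at an unadjusted p under 0.05 (UBASH3A and CBL), and DESeq2 called 1 (UBASH3A). Of all 14394 genes tested in this edgeR fit, 0.0278% were called higher and 0.0347% lower, and 1435 had an unadjusted p under 0.05. DESeq2 called 113 higher and 119 lower of the same genes. With the replicate block in edgeR, 1 of the 7 was called, and 2.22% of all genes were called higher and 2.51% lower. The groups did not overlap for 2 of the 7 genes, against 17.7% of all genes tested. The exact permutation test on a single gene gave p = 0.1 for both genes, the smallest value that 3 against 3 libraries allow. The median log2 fold change of the 7 genes was 0.14, beside 0.01 over all genes tested.

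The second comparison addressed the response to AF9 knockdown. Here the UBASH3 pair moved in opposite directions. UBASH3A rose from 6.53 and 7.38 CPM in control cells to 14.5 and 16.0 CPM in AF9 KD cells. Both KD libraries lay above both control libraries, on 90 and 88 raw counts in the controls and 187 and 214 raw counts in the knockdown. The fold change was 2.19 (log2 fold change 1.13, SE 0.17, adjusted p = 4.79e-04, edgeR), and UBASH3A remained called under all 18 alternatives run.

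UBASH3B fell from 507 and 469 CPM in control cells to 289 and 344 CPM in AF9 KD cells. The groups did not overlap. The level in AF9 KD cells was 64.9% of the control (log2 fold change -0.62, SE 0.11, adjusted p = 9.47e-04, edgeR). The change was close to the 1.5-fold limit. It fell short of that limit when total counts replaced the TMM scaling (-0.53) or offsets for GC content were added to it (-0.51). The same held without AF9 experiment control replicate 1 (-0.57) or AF9 KD replicate 1 (-0.50).

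CBL, CBLB and LYN were lower in AF9 KD cells by less than 1.5-fold. CBL stood at 266 and 260 CPM in control cells and at 194 and 213 CPM in AF9 KD cells (log2 fold change -0.37, SE 0.09, adjusted p = 0.00958, edgeR). CBLB stood at 24.2 and 22.4 CPM and at 16.1 and 17.3 CPM (log2 fold change -0.48, SE 0.14, adjusted p = 0.0180, edgeR). LYN stood at 337 and 308 CPM and at 267 and 245 CPM (log2 fold change -0.33, SE 0.10, adjusted p = 0.0196, edgeR). All 3 passed the adjusted p and failed the fold threshold, so none was called.

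SYK and FYN lay on the other side. SYK stood at 97.4 and 95.2 CPM in control cells and at 114 and 116 CPM in AF9 KD cells (log2 fold change 0.25, SE 0.09, adjusted p = 0.0543, edgeR). FYN stood at 36.0 and 33.5 CPM and at 44.6 and 37.8 CPM (log2 fold change 0.24, SE 0.12, adjusted p = 0.156, edgeR). Neither passed the test. No gene of the 7 changed sign when a library was left out or another setting was used in this experiment.

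In AF9 KD cells edgeR called 2 of the 7 genes, 1 higher and 1 lower, while 8.02% of all genes tested were called higher and 5.06% lower. Counting any fold, 5 of the 7 passed the adjusted p, against 29% of all genes tested. The libraries of the groups did not overlap for any of the 7 genes, which was also so for 66% of all genes tested. With 2 against 2 libraries, the exact permutation test on a single gene cannot go below p = 0.333, the value of all 7. The median log2 fold change of the 7 genes was -0.33, beside 0.01 over all genes. The share of higher calls over all genes depended on the scaling. It was 61.3% of 1069 higher and 675 lower calls with TMM, 76.3% with total counts and 46.5% with GC offsets.

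The 7-letter seed match of the AF9 shRNA, AAATTAA, occurred in 4 of the 8 canonical transcripts, those of the 4 genes with a lower value in AF9 KD cells. CBLB held 6 matches (0.889 per kb), and 0.47% of all canonical transcripts held as many. CBL held 2 (10.9% of all transcripts held as many), and UBASH3B and LYN held 1 each (27.5%). UBASH3A, SYK, FYN and ZAP70 held 0. These 4 transcripts are the longest of the 8 (CBL 11168, UBASH3B 6865, CBLB 6749 and LYN 5872 bases), and longer transcripts hold more matches of any such letters. The part of these matches in the lower values was not tested. For the MLL1 shRNA, TTCCACT occurred 3 times in CBL, 2 times in LYN and 1 time each in UBASH3B and SYK. As many matches as in CBL were held by 0.713% of all canonical transcripts. In MLL1 KD cells the log2 fold change was 0.26 for CBL, 0.14 for UBASH3B, -0.07 for LYN and -0.16 for SYK. None of these was called, and the part of the matches in them was not tested.

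UBASH3A is best known from T cells, so T cell markers are given beside it. The summed level of 8 such markers was 24.5 to 30.5 TPM in control cells and 49.5 to 68.3 TPM in MLL1 KD cells. In the AF9 experiment it was 13.5 to 14.5 TPM in control cells and 16.6 to 21.9 TPM in AF9 KD cells. The sums were thus higher in KD cells, as UBASH3A was. The part of these markers in the UBASH3A values was not tested. In the MLL1 experiment they consisted of CD2, at 14.7 TPM in control and 41.7 TPM in MLL1 KD cells on average, and of CD6, named after its values were seen, at 12.8 and 16.6 TPM. In the AF9 experiment CD2 was at 13.2 and 17.9 TPM and CD6 at 0.566 and 0.760 TPM. The defining T cell genes CD3D, CD3G, CD28 and TRAT1 had at most 3 counts in every library, CD3E had at most 4, and between 4 and 6 of the 8 markers were at or under 3 counts in each group. Of 5 B cell markers, summed at 13.8 to 33.3 TPM over all groups, the receptor chains CD79A (6.03 to 18.5 TPM as group means) and CD79B (8.69 to 14.8 TPM) were detected in every group, and MS4A1 had at most 1 count in any library. The summed level of 6 myeloid markers was 47.2 to 55.6 TPM in control and 30.2 to 46.7 TPM in MLL1 KD cells. In the AF9 experiment it was 214 to 232 TPM in control against 172 to 197 TPM in AF9 KD cells. Most of it was LYZ, at means of 44.2 and 34.6 TPM and of 221 and 181 TPM. CD14 and MPO had at most 3 counts in every library. CSF1R and CSF3R also had lower means after either knockdown. ITGAM, named like these 2 after its values were seen, was higher (0.754 to 0.988 and 0.811 to 2.33 TPM).

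**Figure D2:**
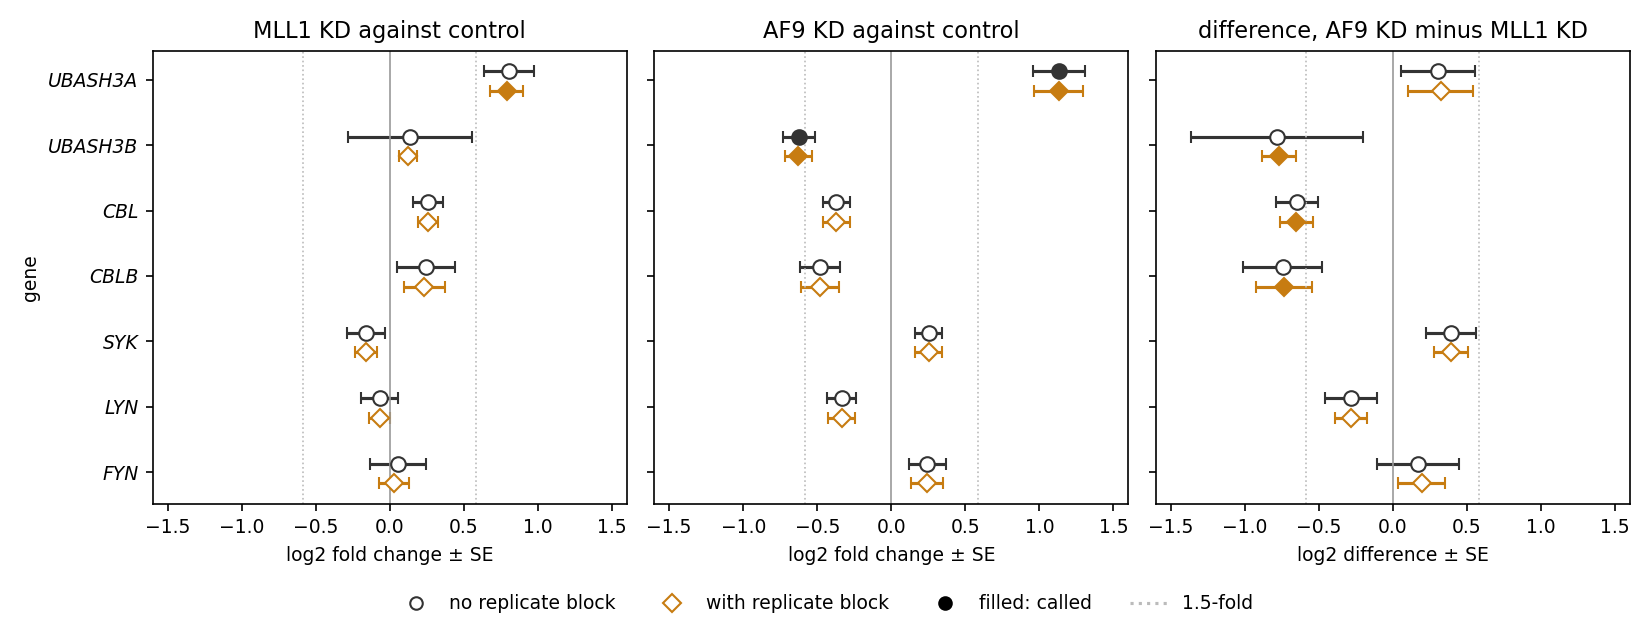
Log2 fold changes with standard errors (horizontal axes) of the 7 tested genes in MLL1 KD and AF9 KD cells against their controls, and the difference between both responses (AF9 KD minus MLL1 KD). Circles are fits without and diamonds fits with the replicate block, filled symbols are called, and dotted lines mark 1.5-fold. UBASH3A lies to the right in both experiments (0.81 and 1.13). UBASH3B, CBL, CBLB and SYK lie on opposite sides of 0 in the 2 experiments. The unblocked side of UBASH3B in MLL1 KD cells depended on which library was left out.

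The third comparison asked whether the responses to the 2 knockdowns differed, by an interaction contrast over all 10 libraries and 12731 genes tested in both experiments. UBASH3A responded in the same direction in both, and the difference was 0.31 (log2, SE 0.25, adjusted p = 0.597, edgeR). The KD libraries of CBL all lay above the controls after MLL1 knockdown and below them after AF9 knockdown, and the difference was -0.65 (SE 0.14). This difference missed the threshold without the block (adjusted p = 0.0590, edgeR) and passed it with the block (adjusted p = 5.48e-04, edgeR) or without MLL1 KD replicate 1 (-0.63, adjusted p = 0.0253, edgeR).

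CBLB followed CBL, with a difference of -0.74 (SE 0.27, adjusted p = 0.189 without the block and 0.00999 with it, edgeR), and it too was called without MLL1 KD replicate 1 (-0.90). UBASH3B differed by -0.78 (SE 0.58, adjusted p = 0.547 without and 1.68e-04 with the block, edgeR). SYK differed by 0.39 (SE 0.17), LYN by -0.28 (SE 0.18) and FYN by 0.17 (SE 0.28), and none of these was called in either fit. Without the block edgeR called 0 of the 7 differences, with 3 at an unadjusted p under 0.05, and DESeq2 called 1 (CBL). With the block edgeR called 3. Of all 12731 genes, 1.35% were called for a difference without the block and 15.3% with it. Without the block, 2206 of them had an unadjusted p under 0.05 by edgeR. DESeq2 without the block called 361 higher and 394 lower of these 12731 genes. Knockdown target and experiment cannot be told apart in these differences, since the controls also differed.

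The RNA balance between the UBASH3 genes was described per library, as the UBASH3A share of the summed TPM of UBASH3A and UBASH3B. In the MLL1 experiment the share was 18.6, 30.7 and 32.4% in control cells and 20.7, 46.6 and 46.0% in MLL1 KD cells. Replicate 1, with its high UBASH3B level, was low in both groups, and the groups overlapped. Within each replicate number the KD library had the higher share, but the labels do not give this pairing. In the AF9 experiment the share was 2.86 and 3.48% in control cells against 10.3 and 9.61% after AF9 knockdown, with no overlap. The mean share was 27.2 ± 7.54% and 37.8 ± 14.8% (SD, n = 3) in the first experiment and 3.17 ± 0.436% and 9.94 ± 0.467% (SD, n = 2) in the second.

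The summed TPM of both genes overlapped between the groups of the MLL1 experiment and was lower in both AF9 KD libraries than in their controls. It was 404, 204 and 215 TPM in control cells and 471, 293 and 281 TPM in MLL1 KD cells. In the AF9 experiment it was 250 and 229 TPM in control cells against 163 and 197 TPM after AF9 knockdown. UBASH3B, the form with the stronger phosphatase, made up more of this RNA than UBASH3A in every library. Protein was not measured in these libraries.

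**Figure D3:**
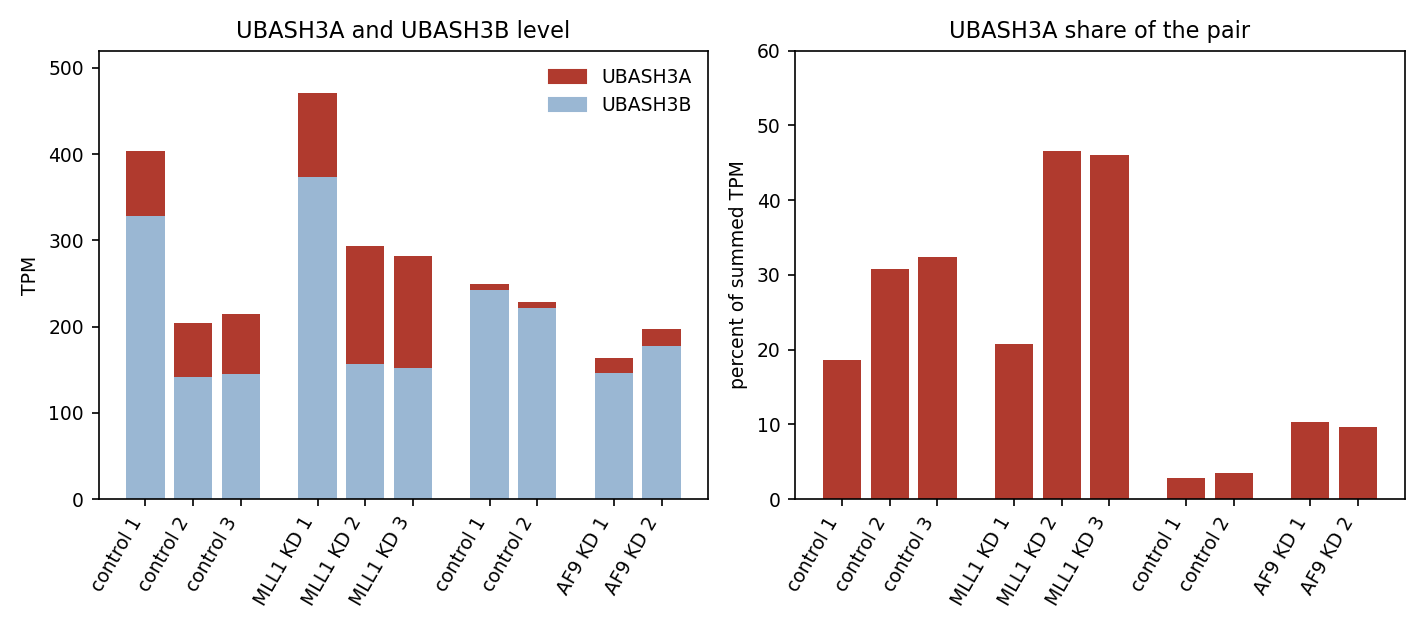
Left, TPM of UBASH3A (red) stacked on UBASH3B (blue) in each of the 10 libraries. Right, the UBASH3A share of the summed TPM in percent, which was highest in MLL1 KD replicates 2 and 3 (46.6 and 46.0%) and lowest in the AF9 experiment control libraries (2.86 and 3.48%).

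Genes whose pattern was most like that of UBASH3A were ranked by Pearson's r of log2 CPM over the 10 libraries, centred on the mean of each experiment. The libraries share their knockdown groups, so the value describes these libraries only. Of 12730 genes, TRIM29 (r = 0.966), RGS12 (0.953), MARCH8 (0.948), KCNK5 (0.946) and PIK3R2 (0.941) were nearest. PIK3R2, a regulatory subunit of PI3-kinase, had a log2 fold change of 0.95 after either knockdown. Within the 8 genes, FYN had the highest r with UBASH3A (0.494) and LYN the lowest (-0.759), and UBASH3B had -0.378.

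The wider pathway was described with 7 lists of 106 genes in all, none of them among the 8. In MLL1 KD cells edgeR called 0 of the 87 tested, with 18 at an unadjusted p under 0.05, and DESeq2 called 2 higher and 2 lower. Over all 14394 genes, 1435 had an unadjusted p under 0.05 by edgeR, and DESeq2 called 113 higher and 119 lower. With the replicate block edgeR called 5 higher and 3 lower, beside 2.22% higher and 2.51% lower of all genes tested. The 3 lower genes, named after their values were seen, were PAG1 (log2 fold change -1.05 with the block), a membrane adaptor that recruits the inhibitory kinase CSK, LAT (-0.61), the scaffold phosphorylated by SYK and ZAP70, and ERBB2 (-0.69), a receptor tyrosine kinase. The 5 higher genes, named in the same way, were SLA (1.31), CRK (0.64) and SPRY1 (0.61) of the CBL partners, the phosphatase PTPN12 (0.60) and the receptor kinase TYRO3 (0.71).

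In AF9 KD cells edgeR called 4 higher and 10 lower of the 85 tested genes, beside 8.02% higher and 5.06% lower of all genes tested. Calls in only 1 experiment do not show that the responses differ. The interaction contrast was read for 13 of the called genes, picked by their AF9 KD call. edgeR called 0 of the 13 without the block and 11 with it, beside 1.35% and 15.3% of all 12731 genes. DESeq2 called 4 of the 13, beside 361 higher and 394 lower of all 12731 genes. Among SRC family kinases, 1 of 4 was called. YES1 fell from 58.3 ± 0.413 to 23.5 ± 0.951 CPM (SD, n = 2), which is -1.31 on the log2 scale (SE 0.11, adjusted p = 9.77e-06, edgeR). Every MLL1 KD library also lay below its controls for YES1 (log2 fold change -0.58, SE 0.21). That change was below 1.5-fold, with an adjusted p of 0.382 without and 0.0197 with the block (edgeR). SRC (-0.08) and FGR (0.43) were not called, and LCK, BLK and FRK were below the filter.

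Of 16 tested genes on the list of other cytoplasmic tyrosine kinases, 3 fell and 1 rose. TEC and BTK belong to the TEC family, which acts with SYK on phospholipase C. TEC fell from 58.7 to 35.5 CPM (log2 fold change -0.73) and BTK from 642 to 402 CPM (-0.67). MATK, a relative of CSK that inhibits SRC family kinases, rose from 3.35 to 8.84 CPM (log2 fold change 1.41, and 0.80 with GC offsets). The adjusted p-values of TEC, BTK and MATK were 3.76e-04 to 0.00117 by edgeR. The call of BTK was lost with total counts, with GC offsets and without AF9 experiment control replicate 1 (-0.57).

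Of 19 tested adaptors and effectors of SYK and ZAP70, 3 fell and 2 rose. LAT2, a scaffold of myeloid and B cells, fell from 30.8 to 14.9 CPM (log2 fold change -1.05, adjusted p = 2.51e-04, edgeR). The exchange factor VAV3 fell from 161 to 104 CPM (-0.62), whereas its relative VAV2 rose from 3.56 to 7.95 CPM (1.15, and 0.72 without AF9 KD replicate 2). PLCG1 rose from 4.61 to 7.38 CPM (0.67), a call made in 8 of 17 alternatives and lost without AF9 experiment control replicate 1 (0.79) or 2 (0.58) or AF9 KD replicate 1 (0.62). VAV3 was not called without AF9 experiment control replicate 1 (-0.48) or AF9 KD replicate 2 (-0.51). GAB2, the third gene that fell, was named after its values were seen (-0.60).

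Of 17 tested CBL partners and regulators, 1 fell and 1 rose. SLA2, an adaptor that links CBL to immune receptors, fell from 217 ± 4.21 to 91.4 ± 10.0 CPM (SD, n = 2), which is -1.25 on the log2 scale (SE 0.10, adjusted p = 6.51e-06, edgeR). SORBS3, an adaptor of the family that binds CBL, rose from 6.69 to 13.1 CPM (0.98), and its log2 fold change was 0.37 and not called with GC offsets and 0.61 without AF9 KD replicate 2. Of 9 tested receptor tyrosine kinases, KIT, the receptor for stem cell factor and a target of CBL, fell from 693 ± 189 to 357 ± 112 CPM (log2 fold change -0.96), and MERTK fell from 26.9 to 15.7 CPM (-0.78). DESeq2 did not call KIT. None of the 6 tested ITAM receptors and chains and none of the 14 tested tyrosine phosphatases was called by edgeR, with or without the block.

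**Figure D4:**
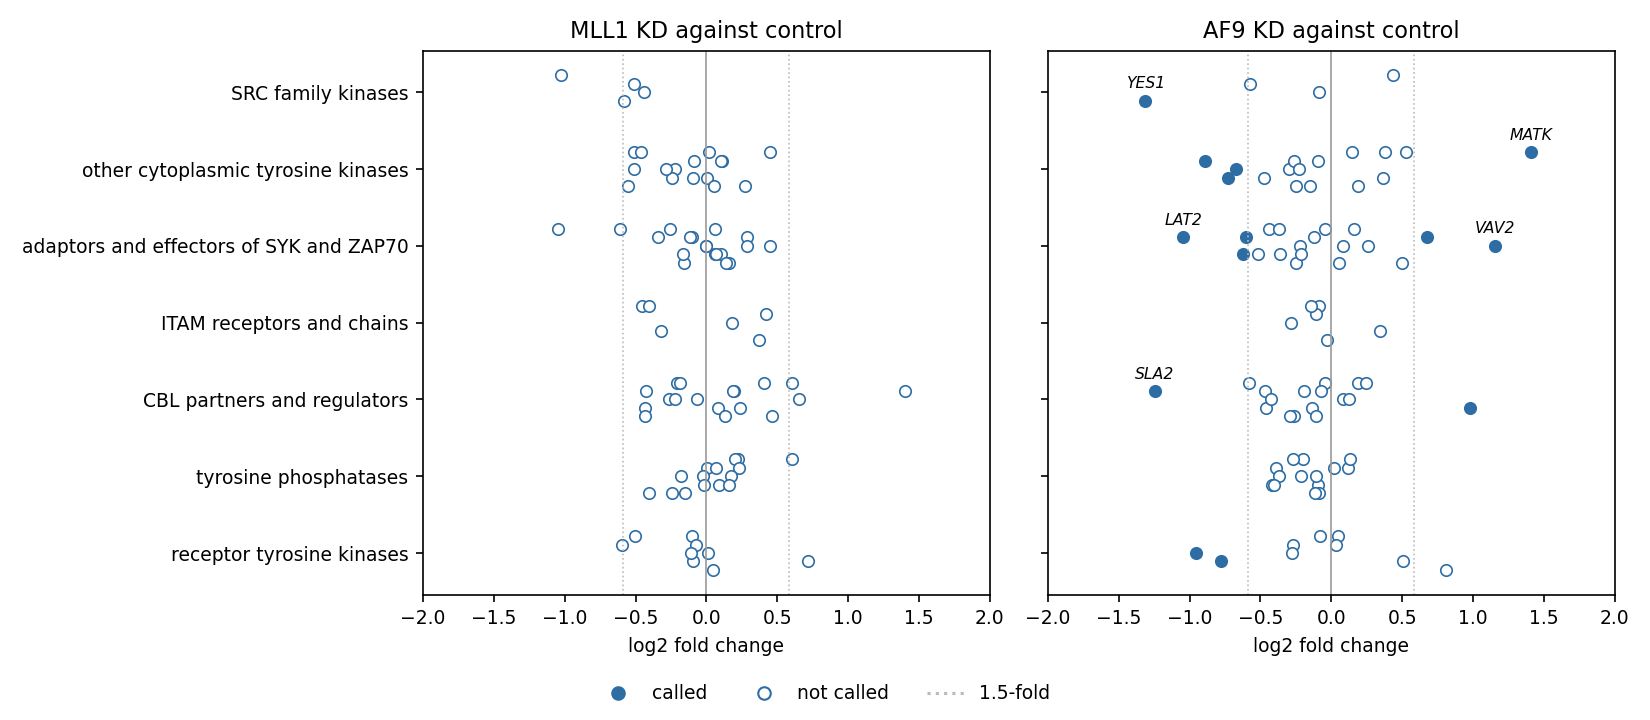
Log2 fold changes (horizontal axis) of the tested genes of the 7 pathway lists in MLL1 KD and AF9 KD cells, with 1 point per gene. Filled points were called by edgeR without the block and dotted lines mark 1.5-fold. No point is filled in the MLL1 KD panel, and 14 are filled in the AF9 KD panel, of which the 5 beyond a log2 value of 1 are named.

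The median log2 fold change of CBL partners was 0.11 after MLL1 knockdown and -0.13 after AF9 knockdown, and that of SRC family kinases was -0.54 and -0.33. For the other lists it lay between -0.09 and 0.07 after MLL1 knockdown and between -0.22 and -0.08 after AF9 knockdown, beside 0.01 over all genes in each experiment.

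The 8 genes lie on different chromosomes (hg38, GENCODE version 44), with the exception of CBL and UBASH3B, which both lie on the long arm of chromosome 11. UBASH3A spans positions 42403447 to 42447684 of chromosome 21 on the forward strand. UBASH3B spans 122655722 to 122814473 and CBL 119206298 to 119313926 of chromosome 11, both on the forward strand, and KMT2A itself lies at 118436456 to 118526832 on the same arm. No stretch of 31 bases was shared between canonical transcripts of the 8 genes, UBASH3A and UBASH3B included. UBASH3A, CBLB, ZAP70 and FYN shared no such stretch with any other gene. The share of such stretches found elsewhere was 0.527% for UBASH3B, 0.916% for CBL, 2.16% for SYK and 3.77% for LYN.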

How the data were processed

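RNA was sequenced from HEL cells in 10 libraries. The authors filtered reads with fastp 0.13.1, mapped them to hg38 with HISAT2 2.1.0 in a strand-specific way and counted them per gene with featureCounts 1.6.1 (versions from the submitters' processing notes). They deposited raw counts per gene symbol, with whole numbers and no normalization. The annotation behind the symbols is not given in the sources used here.

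Symbols were joined to GENCODE version 44 for gene lengths, and 25237 of 28103 (89.8%) matched directly, 716 (2.55%) by a former symbol and 2150 (7.65%) not at all. TPM used merged exon lengths, and a gene without a length was kept at a mean CPM of at least 1. Fits used R 4.3.3 and edgeR 4.0.16 (TMM, estimateDisp, glmQLFit, glmQLFTest, two-sided), with DESeq2 1.42.0, the tool of the study, as an alternative. Correlations used a prior count of 2. The sums and figures used Python 3.11.15, pandas 2.3.3, numpy 2.4.6 and matplotlib 3.10.9. The fits were tested on simulated counts.

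Replicate numbers of the MLL1 experiment were taken to pair libraries, because deviations of same-numbered libraries from their group means had correlations of 0.648, 0.326 and 0.352 over genes. Those of control replicate 2 with KD replicate 3 (0.369) and of control replicate 3 with KD replicate 2 (0.360) were as high, so the values set replicate 1 apart and do not tell replicates 2 and 3 from each other. The pairing comes from these values and not from the labels. In the AF9 experiment the correlation was 0.156 with 2 pairs.

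All 8 genes and both targets are named, and of each pathway list the called genes, at most 4 per list and experiment in order of absolute log2 fold change, as well as the highest marker of a cell type and those at the floor of 3 counts, and the 5 nearest genes to UBASH3A. The 8 genes, the lists and the tests were chosen with earlier results of these data known. Alternatives were DESeq2, other scalings and filters, other fold thresholds, GC offsets (lowess span 0.3), the replicate block, single libraries left out and, chosen after seeing the data, DESeq2 with the block and edgeR's newer quasi-likelihood method. A few pathway and marker genes are not reported here. CUT&Tag and PRO-seq samples were not analysed here.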

Additional observations from a re-analysis of the deposited data

Results flagged for a closer look

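CBL was picked out because every MLL1 KD library lay above its controls and every AF9 KD library below its own. The difference between both responses was -0.65 on the log2 scale (SE 0.14), where MLL1 knockdown gave 0.26 and AF9 knockdown -0.37. The test of the difference gave an adjusted p of 0.0590 without the replicate block (edgeR, Benjamini-Hochberg), and across the 24 alternatives it ranged from 3.54e-05 to 0.317, with 5 of them calling CBL. The difference kept its sign in all of them.

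MLLT3, the target of the AF9 shRNA, differed by -2.16 (SE 0.22, adjusted p = 0.00693, edgeR), as its level was 18.6% of the control in AF9 KD cells and 82.2% in MLL1 KD cells, where the groups overlapped.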

How the results depend on the processing

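Of the 7 tested genes, UBASH3A, CBL, CBLB and SYK each kept their direction across all fits within each experiment. UBASH3B, LYN and FYN did so in AF9 KD cells but not in MLL1 KD cells. In MLL1 KD cells the number called was 0 and became 1 (UBASH3A) with DESeq2 on the same genes or on all genes, the replicate block, GC offsets with the block, DESeq2 with the block, and replicates 2 and 3 only, and it was 0 to 1 with single libraries left out. In AF9 KD cells the number was 2 and became 5 with no fold threshold and 1 with a fold of at least 2, total counts, GC offsets and GC offsets with the block, and it was 1 to 2 with single libraries left out, with UBASH3B the gene lost. The number of differing responses was 0 and became 1 with DESeq2 on the same genes or on all genes (CBL) and with GC offsets and the block (UBASH3B), 3 with the replicate block or DESeq2 with the block, and 0 to 2 with single libraries left out. Of the other pathway genes in MLL1 KD cells, 0 became 4 with DESeq2 on the same genes or on all genes, 8 with the replicate block, 7 with GC offsets and the block, 6 with DESeq2 and the block and 6 with replicates 2 and 3 only. In AF9 KD cells 14 became 35 with no fold threshold and 5 with a fold of at least 2, and 12 to 17 with single libraries left out. The cause was not tested for these changes, other than those that follow from a changed fold threshold.

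Over all genes of the MLL1 experiment, 4 higher and 5 lower calls became 320 and 361 with the replicate block, 113 and 119 with DESeq2, 28 and 25 without MLL1 KD replicate 1, and 0 without any other single library. The block changed no call of the 7 genes in the AF9 experiment, where the numbers are shared without a further sign of pairing. With single libraries left out, log2 fold changes in MLL1 KD cells ranged from -0.38 to 0.62 for UBASH3B, from -0.14 to 0.010 for LYN and from -0.082 to 0.24 for FYN, whose difference between experiments ranged from -0.014 to 0.31. The mean UBASH3A share in AF9 KD cells was 9.94% and moved to 10.7% with the longest transcript as length. ZAP70, at 1 to 14 counts per library, is too shallow to compare, and UBASH3A rests on 88 to 214 counts in the AF9 experiment.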
